A study of Arabidopsis thaliana with 2 samples.

Results

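The SPL genes described here are the 10 Arabidopsis thaliana genes SPL2, SPL3, SPL4, SPL5, SPL6, SPL9, SPL10, SPL11, SPL13A and SPL15, out of 27444 protein-coding genes on chromosomes 1 to 5. They were chosen by locus and described by their MNase hypersensitive sites (MHSs), the places where chromatin is cut first by a light digestion with micrococcal nuclease (MNase). Every MHS that touched a window from 3 kb upstream of the transcription start site (TSS) to 1 kb past the transcription termination site (TTS) was taken. The windows held 61 of the 70046 MHSs of replicate 1 and 33 of the 49934 MHSs of replicate 2. All 10 names are a symbol or synonym of the same locus in the annotation.

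SPL proteins are plant transcription factors that bind DNA through the SBP domain, whose core binding sequence is GTAC. The members studied here carry a target site for the microRNA miR156, which is abundant in young shoots and declines as the shoot ages. The decline releases the SPL transcripts, and the SPL proteins then promote the change from juvenile to adult leaves and later to flowering, in part through miR172 and the flowering genes SOC1, FUL, AP1 and LFY.

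The data came from 1 group with 2 replicates: seedling tissue of wild-type Col-0, 2 weeks old, grown in MS medium with 16 h of light and 8 h of dark, with no treatment and no second genotype. Short fragments released by MNase from formaldehyde-fixed nuclei were sequenced (MH-seq). Because each library was made from the mixed cells of seedling tissue, a site open in few cells and a site weakly open in many cannot be told apart. MHSs covered 11.7% of the 5 chromosomes in replicate 1 and 9.26% in replicate 2, and the lists hold positions only, so the height of an MHS is unknown.

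The miR156 target sites are shown first, because they define this group of genes. The mature miR156a in the RefSeq annotation of TAIR10.1 (chr2:10676534-10676553, minus strand) is 20 bases long and is given by 6 of the MIR156 genes. Its seed, bases 2 to 8, is in capitals.
miR156a: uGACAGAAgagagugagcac
In the target sites below, read on the coding strand, capitals mark bases that differ from the perfect complement of miR156a.
SPL2, SPL6, SPL9, SPL10, SPL11, SPL13A and SPL15: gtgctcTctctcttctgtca
SPL3: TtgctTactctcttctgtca
SPL4: CtgctcTctctcttctgtca
SPL5: CCgctcTctctcttctgtca
The site was the same in 7 members and lay in the coding sequence of each. It differed from the complement at 1 base there, at 2 bases in SPL3 and SPL4, and at 3 bases in SPL5, and in these last 3 genes it lay in the 3′ UTR. At SPL4 only 1 of 3 annotated transcripts held the site, while in each other member all annotated transcripts did. The stretch opposite the seed, at the 3′ end of the site, was without mismatch in all 10. In 5 further SPL genes, SPL1, SPL7, SPL8, SPL12 and SPL14, the best match had 6 to 8 mismatches.

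The extent of open chromatin differed widely among the 10 genes. SPL3 had the highest share of its window in MHSs, 33.5% in replicate 1 and 30.9% in replicate 2, and SPL13A had no MHS in either library. SPL6 followed with 25.7% and 14.8%, SPL9 with 24.9% and 18.1%, and SPL2 with 15.6% and 10.7%. These 4 genes were above the median of all protein-coding genes in both replicates, which was 11.6% and 9.37%. SPL10 had 13.5% and 8.50%, SPL11 had 13.8% and 7.32%, and both were above the median in replicate 1 and below it in replicate 2. SPL5 had 11.4% and 10.2%, below the median in replicate 1 and above it in replicate 2. SPL15 had 9.93% and 6.61% and SPL4 had 4.19% and 1.51%, below the median in both. SPL3 was the first, and SPL15, SPL4 and SPL13A were the last in this order, in both replicates. SPL6 and SPL9 changed places between the replicates, as did SPL5, SPL10 and SPL11, so that the order within these sets depended on the replicate.

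**Figure D1:**
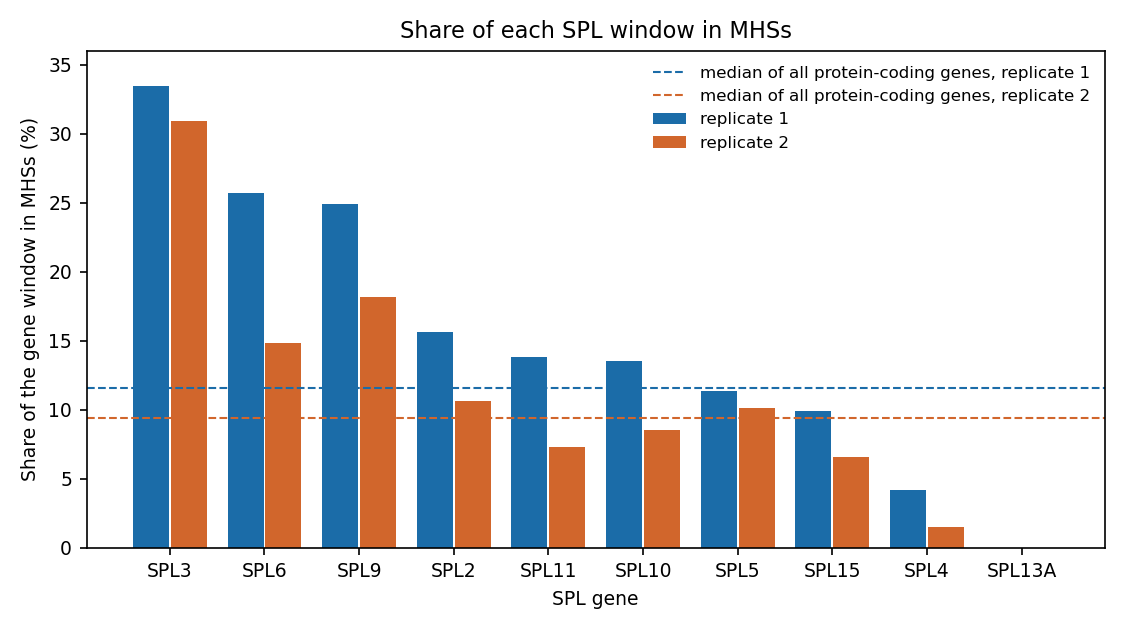
Share of each SPL window (3 kb upstream of the TSS to 1 kb past the TTS) covered by MHSs, in percent, with 1 bar per replicate and dashed lines at the median of all protein-coding genes. SPL3 stands highest at 33.5% and 30.9%, and SPL13A has no bar because its window holds no MHS, which is not a measured level.

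An MHS was found in the window of 9 of the 10 members in replicate 1, where 94.9% of all protein-coding genes had one, and of 9 members in replicate 2, against 90.7%. An MHS shared by both replicates, meaning an overlap of at least 1 bp, was found at 8 members, against 89.2% of all genes. Within 1 kb upstream of the TSS, SPL2, SPL3, SPL5, SPL6 and SPL9 had a shared MHS, 5 of 10 against 70.4% of all genes. In the gene body, from TSS to TTS, SPL2, SPL3, SPL6, SPL9, SPL10 and SPL11 had one, 6 of 10 against 63.4%. The gene without any MHS was 1 of 10 members and 4.62% of all genes. With 10 members these counts differ from the shares of all genes by fewer than 3 genes. The median member had 995 bp in MHSs in replicate 1 and 618.5 bp in replicate 2, and the median of all genes was 735 bp and 597 bp.

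**Figure D2:**
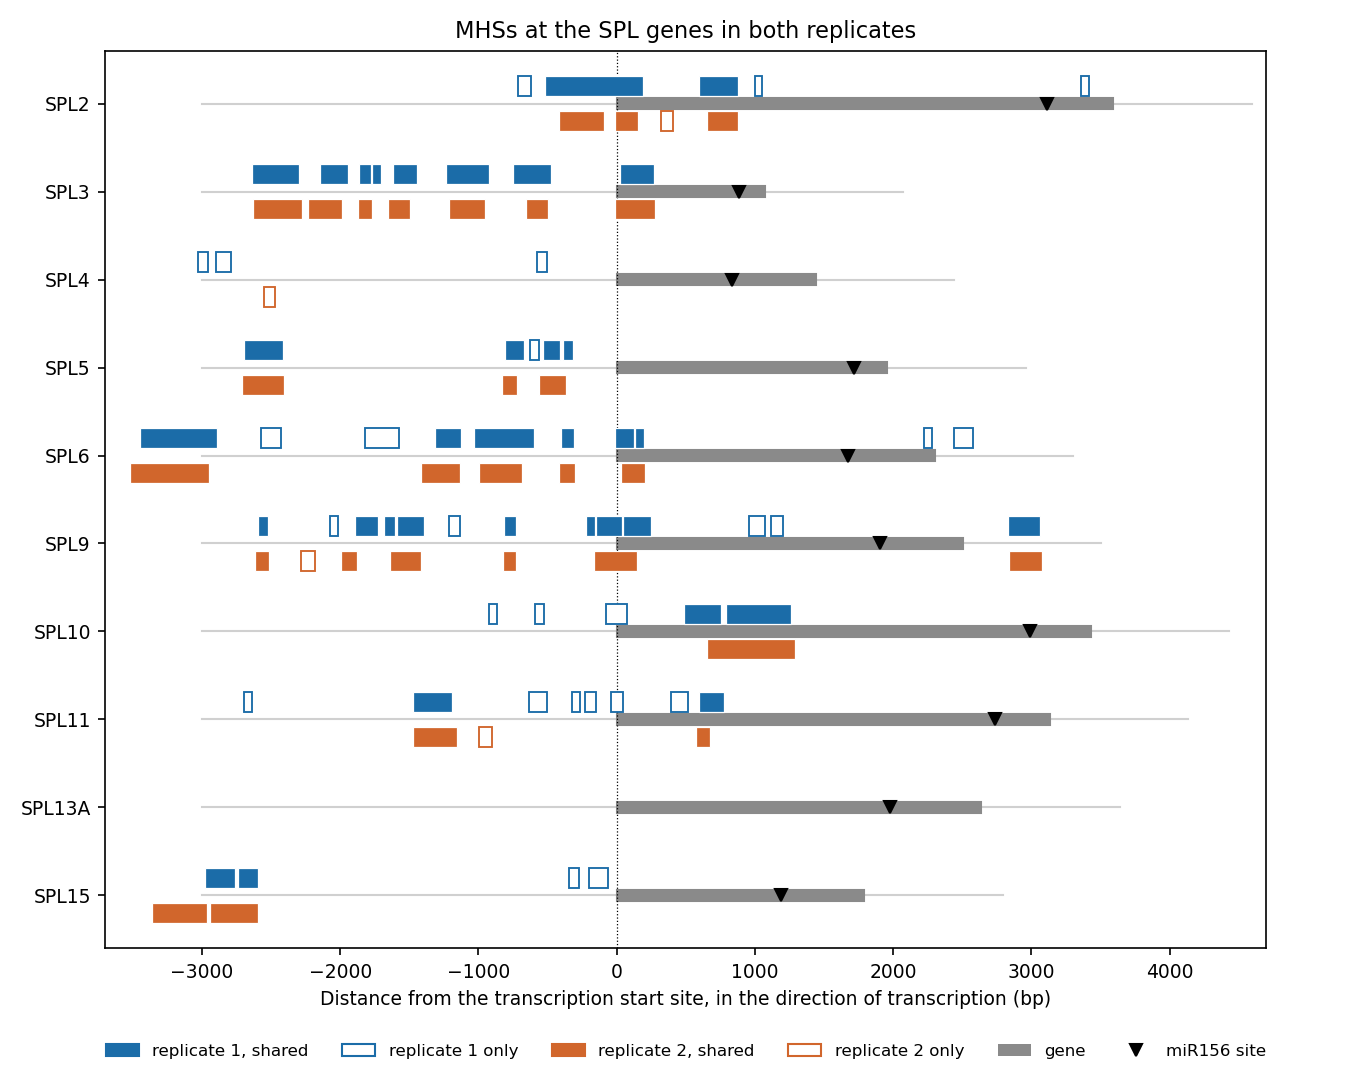
Each SPL gene (grey bar) on a horizontal axis of distance from its TSS in bp, with the MHSs of replicate 1 above in blue and of replicate 2 below in orange, filled where the other replicate has an overlapping MHS and open where it has none. Triangles mark the miR156 site, which no MHS covers in any of the 10 genes. SPL13A has no MHS at all, which is not a measured level.

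SPL9 and SPL15 are closely related genes that promote the change to adult leaves and slow the rate at which leaves are initiated. SPL9 (AT2G42200, chr2:17587169-17589671, plus strand) had 13 MHSs in replicate 1 and 7 in replicate 2, more than any other member in replicate 1 and as many as SPL3 in replicate 2. Its TSS lay inside open chromatin in both: replicate 1 had an MHS of 188 bp from 150 bp before to 37 bp after the TSS and another of 203 bp from 43 to 245 bp after it, and replicate 2 had 1 MHS of 307 bp from 163 bp before to 143 bp after it. A smaller MHS upstream, 814 to 732 bp before the TSS in replicate 1, was almost the same in both, 83 bp and 95 bp, with ends 7 bp and 5 bp apart. In the intron, replicate 1 alone had MHSs of 119 bp and 85 bp. SPL15 (AT3G57920, chr3:21444243-21446035, minus strand) had 4 MHSs in replicate 1 and 2 in replicate 2. The promoter MHS of 141 bp, from 202 to 62 bp before the TSS, and one of 72 bp further upstream were found in replicate 1 only. The MHSs of SPL15 that both replicates shared lay 2598 bp or more upstream, with midpoints 137 bp or less from the TSS of a neighbouring gene, AT3G57930 or AT3G57940. Neither replicate had an MHS in the gene body of SPL15. Within the first kb upstream, SPL9 had 297 bp and 258 bp in MHSs, whereas SPL15 had 213 bp in replicate 1 and 0 in replicate 2.

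The stretches upstream of the TSS that both replicates called open, outside every annotated gene, are shown for the 4 members that had one of at least 20 bp within 1 kb, read on the coding strand of TAIR10.1 and limited to 300 bases. Capitals mark runs of at least 6 A or T, shown because MNase has a base preference for A and T, although it cuts pure runs of A or of T less readily. For SPL9 this was chr2:17587019-17587168, the 150 bases before the TSS, of which 26.0% lay in such runs.
SPL9: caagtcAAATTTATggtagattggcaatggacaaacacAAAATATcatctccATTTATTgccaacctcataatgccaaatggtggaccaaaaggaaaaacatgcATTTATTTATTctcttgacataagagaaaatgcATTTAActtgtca

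SPL2, SPL10 and SPL11 form a related group that shapes leaves and promotes shoot maturation, and all 3 had shared open chromatin inside the long transcribed leader before the coding sequence. SPL2 (AT5G43270, chr5:17360287-17363880, minus strand) had an MHS of 284 bp in replicate 1 and 230 bp in replicate 2 at 597 to 880 bp and 650 to 879 bp after the TSS. SPL10 (AT1G27370, chr1:9505112-9508542, minus strand) had MHSs of 263 bp and 465 bp there in replicate 1, from 490 to 752 bp and from 794 to 1258 bp, and a single MHS of 632 bp in replicate 2, from 655 to 1286 bp. SPL11 (AT1G27360, chr1:9500892-9504023, plus strand) had 184 bp in replicate 1, from 593 to 776 bp, and 104 bp in replicate 2, from 572 to 675 bp. Depending on the annotated transcript, each of these positions is 5′ UTR or an intron of the leader. By midpoint, the SPL10 positions are also upstream of 1 transcript, which starts 1277 bp after the gene's TSS. That start lies within the MHS of replicate 2 and just past the last one of replicate 1. The 465-bp MHS of SPL10 and the 184-bp MHS of SPL11 could be aligned over 194 bp with 75.3% identity. No alignment with an E-value of at most 0.001 was found between the MHSs of SPL2 and of either gene.

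Upstream of the TSS the 3 genes differed. SPL2 had the longest MHS of any member, 708 bp from 521 bp before to 186 bp after the TSS in replicate 1, which in replicate 2 was split into 320 bp and 168 bp. SPL10 had an MHS of 153 bp over its TSS, and SPL11 one of 85 bp, in replicate 1 only. The longest MHS in 1 replicate only was 92 bp at SPL2 and 128 bp at SPL11, both upstream in replicate 1. The longest MHS at SPL11 that both shared within its window, 277 bp in replicate 1 and 322 bp in replicate 2, lay nearest to the TSS of the neighbour AT1G27350. In the first kb upstream, SPL2 had 613 bp and 332 bp in MHSs, SPL10 199 bp and 0 bp, and SPL11 303 bp and 96 bp. From 1 to 3 kb upstream of SPL2, where 69.7% and 73.3% of the 31-base words of each kb occurred more than once in the genome, neither replicate had an MHS, and in the first kb no word was repeated. For SPL2 the 300 bases nearest the TSS of the shared stretch, chr5:17363976-17364275, had 27.0% of their bases in A/T runs.
SPL2: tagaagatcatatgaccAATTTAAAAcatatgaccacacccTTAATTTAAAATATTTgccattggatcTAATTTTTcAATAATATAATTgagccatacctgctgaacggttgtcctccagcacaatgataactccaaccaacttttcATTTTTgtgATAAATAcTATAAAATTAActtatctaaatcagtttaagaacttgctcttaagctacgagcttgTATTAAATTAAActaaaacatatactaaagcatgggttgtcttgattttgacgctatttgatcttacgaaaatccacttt

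SPL13A (AT5G50570, chr5:20582083-20584721, minus strand) belongs to a pair of copies, the other being SPL13B (AT5G50670, chr5:20615565-20618063), and SPL13 acts early in the change from cotyledon to leaf stage. Neither copy had an MHS in either replicate. The window of SPL13A could be aligned to that of SPL13B over 6499 bp without a mismatch or a gap, and every 31-base word in both windows (100%) occurred more than once in the genome. In the other 9 members the share of repeated words was between 0% and 24.3%, and the median of all protein-coding genes was 0.419%. The study discarded reads of low mapping quality, which reads from 2 identical copies receive. Of the 351 protein-coding genes with at least 50% repeated words in their window, 242, or 68.9%, had no MHS in either replicate, against 3.78% of the other genes. The stretch without an MHS around SPL13A was 72080 bp in replicate 1, with 25 protein-coding genes and 93.7% repeated words, and 76087 bp in replicate 2, with 27 genes and 88.8%. Closed chromatin and loss of reads at SPL13A cannot be told apart in these lists, and its value of 0 is a listing rather than a measured level.

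SPL3, SPL4 and SPL5 encode small SPL proteins and promote flowering, and they differed most among themselves. SPL3 (AT2G33810, chr2:14305001-14306072, plus strand) had 8 MHSs in replicate 1 and 7 in replicate 2, and each had a partner in the other replicate. For one of 66 bp in replicate 1 the overlap was only 2 bp. Its TSS region was open from 24 to 271 bp after the TSS in replicate 1 (248 bp) and from 13 bp before to 277 bp after it in replicate 2 (291 bp), a region where an antisense lncRNA gene, AT2G33815, is also annotated. The remaining MHSs lay between 473 and 2636 bp upstream, and the 7 in replicate 1 and 6 in replicate 2 were all nearer to the TSS of AT2G33800 or of the lncRNA gene AT2G08630 than to that of SPL3. SPL4 (AT1G53160, chr1:19806263-19807705, plus strand) had 3 MHSs of 70, 111 and 73 bp in replicate 1 and 1 of 82 bp in replicate 2, none of which overlapped, and no MHS touched its gene body. SPL5 (AT3G15270, chr3:5140365-5142323, minus strand) had no MHS in its gene body in either library. It had 395 bp and 302 bp in MHSs in the first kb upstream, starting 319 bp before the TSS in replicate 1 and 366 bp in replicate 2. The longest of them was 131 bp in replicate 1 and 194 bp in replicate 2, and one of 71 bp was in replicate 1 only. These MHSs also overlapped the neighbouring genes AT3G15260 or AT3G03075. The longest MHS of the SPL5 window, 282 bp in replicate 1 and 303 bp in replicate 2, overlapped the neighbour AT3G15290. Its midpoint lay 58 bp and 55 bp from the TSS of that gene. Of these 3 genes SPL3 alone had a shared MHS over its 5′ UTR. Upstream of SPL3, an MHS of 278 bp in replicate 1 held one of 159 bp in replicate 2, and this common stretch, chr2:14304344-14304502, is shown whole, with 25.8% of its bases in A/T runs.
SPL3: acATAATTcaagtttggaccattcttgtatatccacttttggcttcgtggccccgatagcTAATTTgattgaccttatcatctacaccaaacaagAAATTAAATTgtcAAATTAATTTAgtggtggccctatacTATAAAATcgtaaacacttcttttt

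SPL6 (AT1G69170, chr1:26005068-26007368, plus strand), known for a role in innate immunity, had 10 MHSs in replicate 1 and 5 in replicate 2. All 5 of replicate 2 had a partner. Replicate 1 had an MHS of 137 bp from 10 bp before to 126 bp after the TSS and one of 68 bp just behind it, and replicate 2 had 175 bp from 32 to 206 bp after it. Further upstream, an MHS of 430 bp in replicate 1 (1030 to 601 bp before the TSS) matched one of 315 bp in replicate 2, and a short one of 97 bp (406 to 310 bp before) matched one of 112 bp whose ends lay 8 bp and 7 bp away. The longest MHS of any member found in 1 replicate only, 246 bp at 1821 to 1576 bp before the TSS of SPL6, was in replicate 1. At the 3′ end replicate 1 alone had MHSs of 62 bp and 138 bp, the latter inside the converging gene CRC (AT1G69180). In the first kb upstream SPL6 had 507 bp and 427 bp in MHSs. Both replicates also had a long MHS across the far edge of the window, 552 bp and 568 bp, with 497 bp in common. The midpoints of these lay outside the window, nearest to the TSS of the neighbour AT1G69160, 2059 bp and 1996 bp away. Within 1 kb upstream, the 300 bases nearest the TSS of the longest shared stretch, chr1:26004084-26004383, had 17.3% of their bases in A/T runs, the lowest share of the 4.
SPL6: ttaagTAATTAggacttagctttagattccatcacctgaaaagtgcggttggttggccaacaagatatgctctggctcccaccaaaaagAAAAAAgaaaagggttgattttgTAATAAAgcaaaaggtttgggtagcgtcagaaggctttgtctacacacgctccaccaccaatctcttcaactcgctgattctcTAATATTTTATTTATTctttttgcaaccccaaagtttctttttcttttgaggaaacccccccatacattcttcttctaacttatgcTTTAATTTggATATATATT

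By midpoint, most MHSs at the SPL genes lay before the gene. In replicate 1, 43 of 61 (70.5%, 95% exact Clopper-Pearson interval 57.4 to 81.5%) were upstream and 12 (19.7%, 10.6 to 31.8%) in the 5′ UTR. In replicate 2, 25 of 33 (75.8%, 57.7 to 88.9%) were upstream and 7 (21.2%, 8.98 to 38.9%) in the 5′ UTR. These intervals cover counting error only. Over the windows of all protein-coding genes, in which an MHS counts once for each window it touches, 60.6% and 60.1% of midpoints were upstream and 6.89% and 9.04% in the 5′ UTR. The 5′ UTR made up 11.7% of the members' windows and 3.55% of all windows, so that per kb of 5′ UTR the members had 1.60 and 0.933 MHSs and all genes 1.33 and 1.28. No midpoint fell in coding sequence, 0 of 61 and 0 of 33, where all genes had 1.67% and 3.38%. A count of 0 allows a share of up to 4.92% and 9.09% with 3 counts as the limit, and of up to 5.87% and 10.6% by the exact interval. Downstream of the TTS the members had 2 midpoints (3.28%) in replicate 1 and 1 (3.03%) in replicate 2, and all genes 20.3% and 19.8%. Of the 61 MHSs of replicate 1, 37 had the TSS of the SPL gene itself as the nearest TSS, as did 17 of the 33 of replicate 2. The others lay closer to neighbours. The same share was not counted over the windows of all genes, so whether it is unusual is unknown.

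No miR156 site of the 10 members was covered by an MHS in either replicate. SPL13A adds nothing to this count, because closed chromatin and loss of reads cannot be told apart there. Coding sequence was seldom covered in any gene, since 2.23% of the coding positions of all protein-coding genes lay in an MHS of either replicate. A count of 0 among the 7 coding sites, with that of SPL13A included, is near that background. Of all 3′ UTR positions 21.1% did, and 3 sites are too few to be set against that share. The nearest MHS, in either library, was 241 bp away at SPL2, where a 58-bp MHS of replicate 1 lay in the 3′ UTR, 538 bp at SPL6, 600 bp at SPL3 and 696 bp at SPL9. It was 1244 bp away at SPL15, 1335 bp at SPL4, 1696 bp at SPL10, 1790 bp at SPL5, 1950 bp at SPL11 and 21300 bp at SPL13A. The last value lies across the stretch of mostly repeated words without an MHS and is not a measured distance to open chromatin. At SPL4 and SPL9 a miRNA is also annotated on the other strand, and the mature products of MIR156i and MIR156j have the coordinates of the site exactly (chr1:19807090-19807109 and chr2:17589066-17589085), so that no MHS was listed at these 2 annotated miRNAs either. RNA was not measured.

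Replicate 1 listed more MHSs at the members than replicate 2, and most of those of replicate 2 had a partner. The study reported that its second dataset had a larger share of chloroplast reads and a higher background, judged by the fraction of reads in peaks. How far this shaped the differences between the 2 lists was not tested. Of the MHSs at members, 35 of 61 (57.4%, 44.1 to 69.96%) of replicate 1 overlapped one of replicate 2, and 29 of 33 (87.9%, 71.8 to 96.6%) of replicate 2 overlapped one of replicate 1. For all MHSs these shares were 61.9% and 86.9%, within both intervals. Unshared MHSs were short. At the members, the median length in replicate 1 was 191 bp for shared and 75.5 bp for unshared MHSs, and in replicate 2 it was 236 bp and 93.5 bp. MHSs of at most 100 bp numbered 26 of 61 in replicate 1, of which 9 (34.6%) were shared, while 26 of the 35 longer ones (74.3%) were. Over the whole genome the shares in replicate 1 were 26.2% and 82.4%. In replicate 2, 5 of 33 were that short, 1 of them shared, and all 28 longer ones were shared. Over the whole genome 60.03% and 91.1% of the short and longer MHSs of replicate 2 were shared. Where a single MHS of each replicate formed a pair, which held for 19 pairs, the 38 ends differed by a median of 25 bp and by 1 to 153 bp, and 12 ends by at most 10 bp. Measured in bp, the part open in both replicates was 71.5% of that open in either at SPL3, 66.5% at SPL5, 56.1% at SPL2, 55.5% at SPL15, 52.4% at SPL10, 46.6% at SPL9, 46.4% at SPL6, 31.4% at SPL11 and 0% at SPL4.

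**Figure D3:**
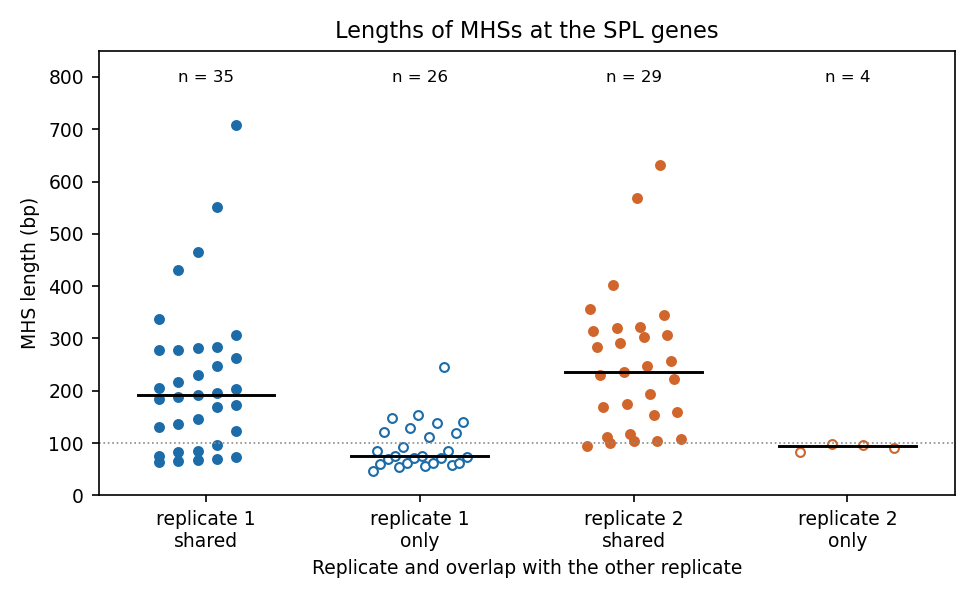
Length in bp of each MHS at the SPL genes (points), by replicate and by whether the other replicate has an overlapping MHS, with the median as a black line and a dotted line at 100 bp. The 4 MHSs found in replicate 2 only are all under 100 bp, and the 26 found in replicate 1 only reach 246 bp.

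Base composition at the members depended on the replicate. The A/T content of the MHSs was 67.7% ± 5.59 (SD over 61 MHSs) in replicate 1 and 63.7% ± 4.54 (SD over 33 MHSs) in replicate 2, and that of all MHSs was 69.3% and 64.6%. Against flanks of the same length 500 bp away, MHSs of replicate 1 were higher by 2.01 percentage points on average, with 30 of 61 above their flanks, and MHSs of replicate 2 differed by -2.32 points, with 9 of 33 above. The SD over MHSs was 7.56 and 6.70 points, larger than either mean. In replicate 1 the MHSs of at most 100 bp had 70.8% A/T and the longer ones 65.5%, and those without a partner had 71.2% against 65.2% for those with one. In replicate 2 the corresponding values lay close together, 64.6% (5 MHSs) and 63.6% by length, and 63.6% (4 MHSs) and 63.7% by partner.

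Of the DNA motifs searched on both strands, GTAC, the core of SBP-domain binding, occurred in 17 of the 61 MHSs of replicate 1 (27.9%) and 13 of the 33 of replicate 2 (39.4%), where 27.0% and 33.3% of all MHSs had it. CACGTG, the G-box bound by bHLH and bZIP factors, occurred in 2 MHSs of each replicate (3.28% and 6.06%), against 6.10% and 9.34% of all. GAGAGA, a GA repeat, occurred in 10 of each (16.4% and 30.3%), against 18.2% and 22.7%. The motifs do not overlap one another, and lengths were not matched between members and all MHSs. Per kb of MHS, GTAC occurred 2.38 and 1.84 times at the members, against 1.83 and 2.07 times in all MHSs. For CACGTG the values were 0.298 and 0.395, against 0.361 and 0.509. For GAGAGA they were 2.98 and 3.55, against 2.21 and 2.05. The SPL2 MHS over the TSS held 14 of the 30 GAGAGA matches of replicate 1. The 168-bp MHS of replicate 2 that lay inside it held 12 of the 27 of replicate 2. The same stretch of SPL2 thus gave many of the matches in both replicates. None of the 4 upstream stretches printed above holds any of these motifs. GTAC was present in the promoter stretch of the same length directly before the TSS in 39.7% of all protein-coding genes for 300 bases, 23.1% for 159 bases and 21.9% for 150 bases.

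Other genes of the pathway were described by the same windows. The 5 SPL genes without a miR156 site had a median of 22.3% of the window in MHSs in replicate 1 and 20.6% in replicate 2. The 10 members, all with a site, had 13.7% and 9.33%, including SPL13A, whose 0 is not a measured level. Of the other 9 members, the middle value was 13.8% (SPL11) in replicate 1 and 10.2% (SPL5) in replicate 2. SPL13B carries the same site as SPL13A and was not counted in this list. All 5 without a site had a shared MHS within 1 kb upstream. Among them SPL8, which acts in anther development, had the most, 28.0% and 23.6%, and SPL12 the least, 11.2% and 9.77%. The ranges of the SPL genes with and without a site overlapped in both replicates. The 8 MIR156 genes from MIR156A to MIR156H, of which 6 give the mature miR156a sequence printed above, had medians of 18.2% and 19.1%, from 8.55% and 5.996% at MIR156G to 41.7% and 24.9% at MIR156C, and 5 of 8 had a shared MHS within 1 kb upstream. MIR156i and MIR156j were not in this list. The 5 MIR172 genes, which act downstream of SPL9, had medians of 15.8% and 9.04%, with MIR172C highest at 30.1% and 22.1% and MIR172D lowest at 1.70% and 0%, and 2 of 5 had a shared MHS within 1 kb upstream. The windows of MIR genes are shorter and hold mostly upstream DNA, so their shares and those of protein-coding genes are not like for like.

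The 6 AP2-like genes that miR172 represses, AP2, TOE1, TOE2, TOE3, SMZ and SNZ, had medians of 23.8% and 20.7%. All 6 were above the median of all protein-coding genes in both replicates and had a shared MHS within 1 kb upstream, with AP2 highest at 39.3% and 27.6% and TOE2 lowest at 16.2% and 11.3%. The 4 flowering genes that SPL proteins activate had medians of 19.0% and 14.3%, with SOC1 highest at 33.0% and 24.2% and FUL lowest in both replicates at 10.6% and 11.9%. LFY was the 1 of these 4 without a shared MHS within 1 kb upstream. In both replicates the medians of the SPL genes without a site, the AP2-like genes and the flowering genes were above that of the SPL members, with or without SPL13A. The MIR156 medians were above it too, in windows that are not like for like. No list-wise test was made.

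**Figure D4:**
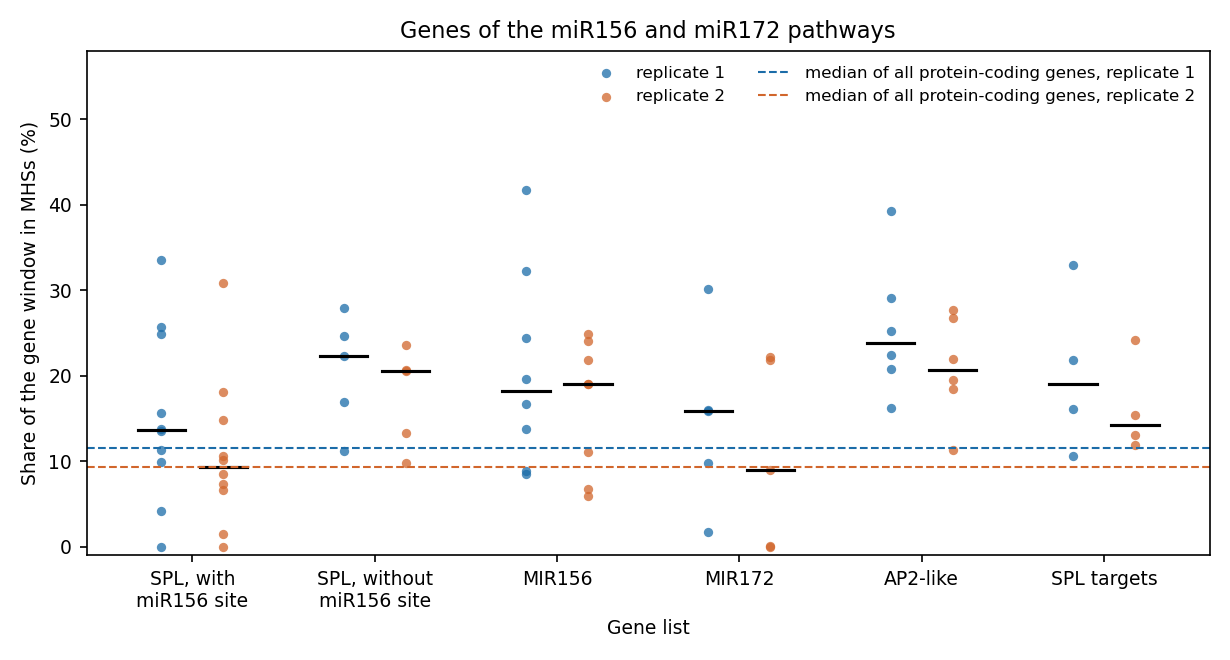
Share of the window in MHSs, in percent, for each gene of 6 lists (points), replicate 1 in blue and replicate 2 in orange, with the list median as a black line and dashed lines at the median of all protein-coding genes. The SPL genes with a miR156 site, here the 10 members without SPL13B, spread from 0 (SPL13A, not a measured level) to 33.5% in replicate 1. Their medians with SPL13A included are 13.7% and 9.33%.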

How the data were processed

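Arabidopsis seedlings were assayed by MH-seq in 2 libraries of 1 group. Per the study's methods, reads were trimmed (cutadapt), mapped to TAIR10 (Bowtie2) and filtered by mapping quality. The authors then called MHSs with their own software in each library. The deposited lists hold only the start and end position of each MHS, with no signal. Tool versions and call cut-offs are not given in the sources used here, and the depth behind a single MHS is unknown. Replicate 1 is the library whose label bears no number. The study describes the second library as a biological replicate, and the labels do not say how the seedlings were grouped.

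Positions were read as 0-based half-open and are printed 1-based. Gene models and mature miRNAs were those of RefSeq for TAIR10.1, which keeps the nuclear chromosomes of TAIR10. An MHS was shared where at least 1 bp overlapped an MHS of the other replicate, and a feature was given by the midpoint, with 5′ UTR put before intron where transcripts differ. miR156 sites were the best ungapped match in any transcript to the complement of miR156a. Percentages of all genes use the same rules on 27444 protein-coding genes. Repeated words were 31 bases, on both strands. Alignments used blastn 2.17.0, and the rest numpy 2.4.6, scipy 1.17.1 and matplotlib 3.10.9 under Python 3.11.15. Functions were tested on simulated data (12 of 12 tests recovered).

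With 1 group no test between conditions was possible, and counts stand beside those of all genes. The members and lists were chosen with earlier results of these data known. All 10 members and SPL13B are named, and of each list the genes with the most and the fewest base pairs or the highest and lowest share. Of 6 SPL genes listed without a site, SPL16 was dropped because the annotation gives its locus no such name. Alternatives changed the overlap, length minimum, window, TSS, replicate and flanks.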

Additional observations from a re-analysis of the deposited data

How the results depend on the processing

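Of 30 alternatives to 8 results, 23 stayed within the limits set, 5 moved a value and 2 turned a direction. Some of the 23 could not have moved and test nothing. Leaving out SPL13A could not change the shares with a partner, because it had no MHS. Leaving out either replicate could not add a covered miR156 site, because no site was covered in either. The limits also let the share of replicate 1 MHSs with a partner fall from 57.4% to 44.3%, when at least 50% of the MHS had to be covered. With 200 bp in place of 1 kb upstream, 2 members had a shared MHS. A reciprocal overlap of at least 50% lowered the share of replicate 1 MHSs at members with a partner to 39.3%, and keeping MHSs of at least 100 bp raised it to 74.3%. The median of 995 bp in MHSs per window became 618.5 bp without replicate 1, and 627.5 bp in a window from 1 kb upstream to the TTS. The difference in A/T content from flanks, 2.01 points in replicate 1, was -2.32 points without replicate 1 and -0.78 points for MHSs of at least 100 bp. The causes were not tested. No miR156 site had an MHS within 100 bp under any setting, and the site of SPL13A adds nothing to this. No paired analysis was possible because there is 1 group. The lists hold no read counts, so weak and strong MHSs count alike.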
